A study of Mus musculus with 33 samples.

Results

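The small leucine-rich proteoglycans (SLRPs) are secreted proteins of the extracellular matrix, and 10 of their genes were followed here through tendon and fibrocartilage differentiation in culture. The genes were taken by their symbols, Dcn, Bgn, Fmod, Lum, Kera, Prelp, Ogn, Aspn, Epyc and Omd. The set was chosen with earlier results of these data known. Of these 10 genes, 8 had a row in the table of 17120 genes, and Kera and Omd were not analysed here. Mouse embryonic stem cells carrying the ScxGFP reporter, a transgene that marks cells expressing the tendon factor Scx, had been kept on mouse embryonic fibroblast feeders. They were formed into embryoid bodies with LDN-193189, an inhibitor of BMP receptors, and taken on to paraxial mesoderm (PM) with the further addition of CHIR, an activator of Wnt signaling. The methods also describe addition of AGN 193109 or retinoic acid during PM induction, and which was used for the PM libraries is not given in the sources used here. The paper reports that retinoic acid at this stage removed nearly all later ScxGFP induction. It also states that the sequenced time course followed its highly efficient protocols. If AGN 193109 was added to PM, the fibrocartilage condition below continued it, while the tendon condition replaced it. From D6 on, cells grew in monolayer with TGFβ1, SAG (an agonist of hedgehog signaling) and FGF2. The tendon condition added CD1530, which activates retinoic acid receptor gamma. The fibrocartilage condition, here called AGN, added AGN 193109, which binds retinoic acid receptors and lowers their basal activity.

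RNA was sequenced from PM at D6 and from each condition after 0.25 days of induction (called D6.25), 0.75 days (D6.75), 1.5 days (D7.5), 2.5 days (D8.5) and 4 days (D10). Each of the 11 groups held 3 libraries, called biological replicates in the methods. Whether they were separate differentiations is not given in the sources used here, so p-values measure the spread between these libraries. Total counts were 17.1 M to 22.8 M per library, apart from AGN D8.5 replicate 1 with 38.1 M. The labels give the PM cultures as embryoid bodies and the induced groups as monolayers, and this difference cannot be told apart from time. The PM markers Tbx6 and Msgn1 had means of 9.56 and 3.38 CPM (TMM counts per 1e+06 of library size) in PM, beside 466 CPM of the pluripotency gene Nanog. The summed level of the cartilage markers Sox9, Col2a1 and Acan was between 2767 and 2900 CPM in AGN at D10 and between 214 and 222 CPM in CD1530. The summed level of the tendon markers Scx, Mkx and Tnmd was between 881 and 912 CPM in CD1530 and between 1239 and 1298 CPM in AGN, the higher of these in the fibrocartilage condition. Nearly all of it was Scx, at 858 CPM in CD1530 and 1223 CPM in AGN, while Mkx was at 36.7 and 37.2 CPM. Tnmd, which marks differentiated tendon cells, was low in both, at 5.12 CPM in CD1530 and 10.4 CPM in AGN.

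SLRPs have a small core protein of leucine-rich repeats, which folds into an arc and binds collagen fibrils. Many carry chains of chondroitin, dermatan or keratan sulfate. In tendon they govern the width and spacing of collagen fibrils, and several also bind TGFβ or cell surface receptors. Dcn (decorin), Bgn (biglycan) and Aspn (asporin) form class I, Fmod (fibromodulin), Lum (lumican), Prelp, Kera and Omd form class II, and Epyc (epiphycan) and Ogn (osteoglycin, or mimecan) belong to class III. Decorin and fibromodulin are known as abundant SLRPs of mature tendon, biglycan of young tendon, and epiphycan of growth cartilage.

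By D10 each of the 8 genes had risen above PM in both conditions, but they ended at different levels. Dcn and Ogn ended higher in CD1530, by 2.72-fold and 2.06-fold. Fmod, Prelp, Aspn, Epyc and Bgn ended higher in AGN, by 4.81-fold, 4.03-fold, 3.75-fold, 2.67-fold and 2.08-fold. Lum ended at 271 CPM in both. Levels are given as the mean ± SD of 3 libraries. Differences come from edgeR's quasi-likelihood test over all 17120 genes, and a gene was called at a Benjamini-Hochberg adjusted p under 0.05.

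**Figure D1:**
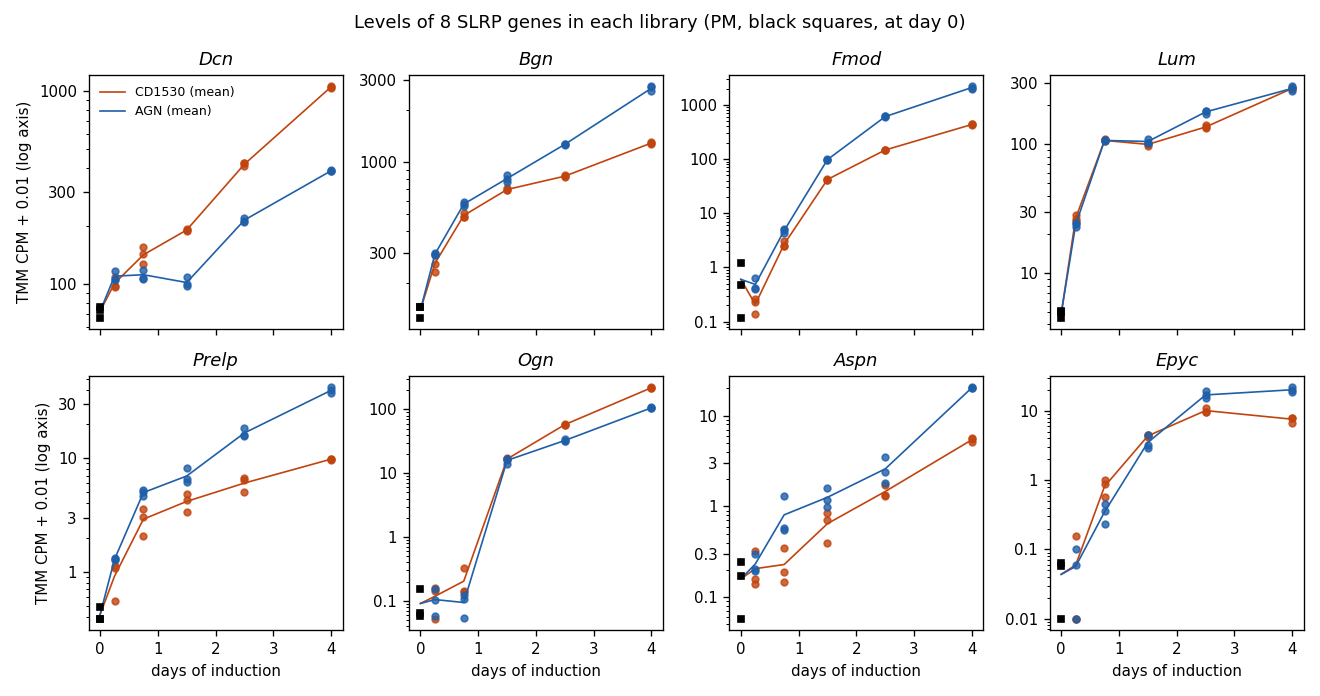
TMM CPM plus 0.01 (log axis) against days of induction for each of 8 SLRP genes, with 1 point per library, black squares for PM and lines through the means of the 3 libraries of each group. Dcn and Ogn end higher in CD1530, Lum ends at the same level in both, and the other 5 genes end higher in AGN.

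Decorin parted between the conditions in the middle of induction, when its level held in AGN, and again after D8.5. In PM, Dcn stood at 73.3, 76.6 and 67.0 CPM. At D6.25 it was 101 ± 6.96 CPM in CD1530 and 110 ± 6.37 CPM in AGN, both above PM (log2 fold change 0.48 ± 0.06 SE, adjusted p = 2.57e-09, and 0.60 ± 0.06, adjusted p = 1.5e-11). It went on rising in CD1530, to 142 ± 13.3 CPM at D6.75 and 191 ± 2.37 CPM at D7.5. In AGN it was 112 ± 6.83 and 102 ± 5.84 CPM at these times, and neither step was called (log2 fold change 0.03 ± 0.06, adjusted p = 0.736, and -0.13 ± 0.06, adjusted p = 0.0745, edgeR). Without AGN D7.5 replicate 1 the second of these was called, as a log2 fold change of -0.18 (adjusted p = 0.0257). Both conditions then rose to D8.5, by 1.13 ± 0.05 in CD1530 and 1.07 ± 0.05 in AGN on the log2 scale. From D8.5 to D10 Dcn rose by 1.33 ± 0.05 in CD1530 and by 0.85 ± 0.05 in AGN, and these steps differed by 0.48 ± 0.07 (adjusted p = 3.27e-06, edgeR). At D10 the CD1530 libraries held 1045, 1060 and 1057 CPM and the AGN libraries 389, 386 and 386 CPM. The lowest CD1530 library was thus above the highest AGN library, as it was at D6.75, D7.5 and D8.5. The difference at D10 was 1.45 ± 0.05 on the log2 scale (95% confidence interval 1.34 to 1.55, adjusted p = 4.17e-23, edgeR).

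Biglycan, the closest relative of decorin, went the other way. Bgn stood at 146, 146 and 126 CPM in PM and rose at every step in both conditions. It was higher in AGN from D6.75 on, with 574 ± 13.3 CPM against 493 ± 16.9 CPM in CD1530 (log2 fold change of CD1530 over AGN -0.22 ± 0.05, adjusted p = 0.00185, edgeR). At D7.5 this difference was -0.21 ± 0.05, at D8.5 -0.61 ± 0.05 and at D10 -1.05 ± 0.05. The D10 libraries held 1301, 1310 and 1277 CPM in CD1530 and 2758, 2725 and 2595 CPM in AGN, without overlap. Per kilobase of exon, the ratio of Dcn to Bgn was 0.542 ± 0.0169 (SD, n = 3) in PM. It reached 0.850 ± 0.0136 in CD1530 at D10 and 0.150 ± 0.00444 in AGN. In CD1530 it first dropped to 0.287 ± 0.00189 at D7.5 before it climbed, and in AGN it stayed between 0.132 and 0.176 from D7.5 on.

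Asporin, which binds collagen and TGFβ and has no glycosaminoglycan chain, was the lowest of class I. Aspn had 1, 5 and 3 counts in the PM libraries, and 0.149 ± 0.0948 CPM. At D10 it reached 5.66, 5.06 and 5.51 CPM in CD1530 and 20.4, 20.1 and 20.5 CPM in AGN. The groups at D10 lay far apart (log2 fold change -1.91 ± 0.16, adjusted p = 2.29e-13, edgeR). From summed counts, the D10 level was 36.5 times that of PM in CD1530 (95% counting interval 19.0 to 80.6) and 137 times in AGN (71.9 to 300). Such intervals cover counting error only. The earlier differences of Aspn rest on few counts. At D6.75 the AGN libraries had 13, 11 and 23 counts and the CD1530 libraries 4, 3 and 8 (log2 fold change -1.77 ± 0.44, adjusted p = 0.00303), and without AGN D6.75 replicate 3 this fell to -1.30 with an adjusted p of 0.0667. The call was also lost when only the compared groups were fitted (adjusted p = 0.0690). The call at D7.5 was lost without CD1530 D7.5 replicate 1 (adjusted p = 0.145), CD1530 D7.5 replicate 3 (0.0576) or AGN D7.5 replicate 1 (0.156), and that at D8.5 without AGN D8.5 replicate 2 (0.0669).

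Fibromodulin, a class II SLRP with keratan sulfate chains that binds collagen type I, had the largest difference of the 8 genes at D7.5, D8.5 and D10. Fmod had 25, 10 and 2 counts in the PM libraries, a wider spread relative to the mean than in any later group. At D6.25 it was 0.199 ± 0.0631 CPM in CD1530 and 0.476 ± 0.130 CPM in AGN. From PM to D6.25 the log2 fold change in CD1530 was -1.60 ± 0.47 (adjusted p = 0.00378, edgeR), from 37 summed counts in PM and 13 at D6.25. It rests on PM replicate 1, without which it was -0.60 and not called (adjusted p = 0.348). It then rose from 2.67 ± 0.368 to 42.0 ± 1.14 CPM between D6.75 and D7.5 in CD1530, and from 4.78 ± 0.466 to 97.7 ± 3.57 CPM in AGN. At D8.5 the means were 147 ± 1.63 and 607 ± 8.12 CPM. At D10 the libraries held 434, 427 and 442 CPM in CD1530 and 2192, 2078 and 1991 CPM in AGN. The groups did not overlap at any of the 5 times. The log2 fold change of CD1530 over AGN was -1.25 ± 0.50 at D6.25 (adjusted p = 0.280, not called), -0.83 ± 0.16 at D6.75, -1.22 ± 0.07 at D7.5, -2.05 ± 0.06 at D8.5 and -2.27 ± 0.06 at D10 (adjusted p = 2.95e-24, edgeR). Against PM, summed counts were 711 times higher in CD1530 at D10 (95% counting interval 516 to 1011) and 3417 times higher in AGN (2479 to 4854). The spread of PM goes beyond these intervals: the fitted log2 fold changes were 9.46 and 11.73, and without PM replicate 1 they were 10.46 and 12.73.

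Lumican, which shares a collagen site with fibromodulin, did not follow it. Lum rose from 4.50, 5.01 and 5.06 CPM in PM to 26.7 ± 1.43 CPM in CD1530 and 23.8 ± 0.762 CPM in AGN by D6.25, and to 107 CPM in both by D6.75. Its level then changed little. The step from D6.75 to D7.5 was -0.11 ± 0.04 in CD1530 (adjusted p = 0.0348, and from 0.0553 to 0.173 without CD1530 D6.75 replicate 1 or 3 or D7.5 replicate 2 or 3) and -0.03 ± 0.04 in AGN (adjusted p = 0.688) on the log2 scale. At D8.5 it was 136 ± 4.56 CPM in CD1530 and 178 ± 4.80 CPM in AGN, the only time at which a difference was called (-0.38 ± 0.04, adjusted p = 9.84e-11, edgeR). At D10 the libraries held 269, 273 and 271 CPM in CD1530 and 273, 259 and 281 CPM in AGN. The groups overlapped and the log2 fold change was -0.00 ± 0.04 (95% confidence interval -0.08 to 0.07, adjusted p = 0.970). The ratio of Fmod to Lum per kilobase was 0.0184 ± 0.00298 in CD1530 and 0.0330 ± 0.00301 in AGN at D6.75, and 1.19 ± 0.0263 and 5.71 ± 0.405 at D10.

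Prelp, a class II SLRP that binds heparan sulfate of basement membranes, rose more slowly and stayed lower. It had 0.411 ± 0.0584 CPM in PM and was called higher at every step in both conditions. The step from D6.75 to D7.5 was not called without CD1530 D6.75 replicate 1, CD1530 D7.5 replicate 1 or 2, or AGN D7.5 replicate 2, nor that from D7.5 to D8.5 without CD1530 D7.5 replicate 3 (adjusted p from 0.0557 to 0.161, edgeR). The D10 libraries held 9.70, 9.85 and 9.89 CPM in CD1530 and 42.1, 39.5 and 37.2 CPM in AGN, without overlap. The log2 fold change was -0.78 ± 0.16 at D6.75, -0.76 ± 0.15 at D7.5, -1.46 ± 0.12 at D8.5 and -2.01 ± 0.11 at D10 (adjusted p = 2.63e-19, edgeR). Exons of Prelp overlap those of the antisense gene Gm15851 over 9.70% of their length, and the strand setting of the counting is not given in the sources used here, so reads of these genes cannot be told apart.

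Osteoglycin, a class III SLRP that takes part in collagen fibril growth, was switched on between D6.75 and D7.5 in both conditions. Ogn had 1 to 3 counts in each library of PM, of both conditions at D6.25 and of AGN at D6.75, and 3, 7 and 3 counts in CD1530 at D6.75. At D7.5 it stood at 16.2, 17.1 and 16.7 CPM in CD1530 and 16.9, 14.0 and 16.7 CPM in AGN, and the conditions were not distinguished (log2 fold change 0.08 ± 0.07, adjusted p = 0.480, edgeR). By summed counts this was 86.8 times the D6.75 level in CD1530 (95% counting interval 50.5 to 164) and 193 times in AGN (82.5 to 597). The conditions differed only later, with 57.8 ± 1.24 and 32.6 ± 1.21 CPM at D8.5. At D10 the libraries held 222, 216 and 219 CPM in CD1530 and 110, 104 and 105 CPM in AGN (log2 fold change 1.04 ± 0.05, adjusted p = 2.96e-21), without overlap at either time.

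Epiphycan, a class III SLRP with dermatan sulfate chains, changed sides. Epyc had at most 1 count per library in PM. At D6.75 it had 22, 19 and 13 counts in CD1530 and 8, 9 and 4 in AGN, and was higher in CD1530 (log2 fold change 1.20 ± 0.39, adjusted p = 0.0251, edgeR). That call was lost without replicate 1 or 2 of CD1530 or replicate 1 or 3 of AGN, with adjusted p-values from 0.0573 to 0.109, and in a fit of the compared groups only (0.0944). At D7.5 the means were 4.35 ± 0.189 and 3.50 ± 0.849 CPM (adjusted p = 0.194, and 0.0361 without AGN D7.5 replicate 2, edgeR). At D8.5 Epyc was lower in CD1530, with 9.72, 11.1 and 9.61 CPM against 16.9, 19.1 and 15.1 CPM in AGN (-0.74 ± 0.12, adjusted p = 2.86e-06). From D8.5 to D10 it fell in CD1530 to 7.58 ± 0.700 CPM (log2 fold change -0.43 ± 0.14, adjusted p = 0.00720), the only called decrease of the 8 genes over that step. This call was lost without CD1530 D8.5 replicate 2 (adjusted p = 0.0514) or CD1530 D10 replicate 1 (0.0536). In AGN the D10 libraries held 20.1, 18.7 and 21.9 CPM (log2 fold change from D8.5 0.25 ± 0.11, adjusted p = 0.0595, and 0.0247 and 0.0470 without AGN replicate 2 of D8.5 and of D10). Exons of Epyc overlap the antisense gene Gm10754 over 40.6% of their length, so its reads also cannot be assigned to a strand here.

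**Figure D2:**
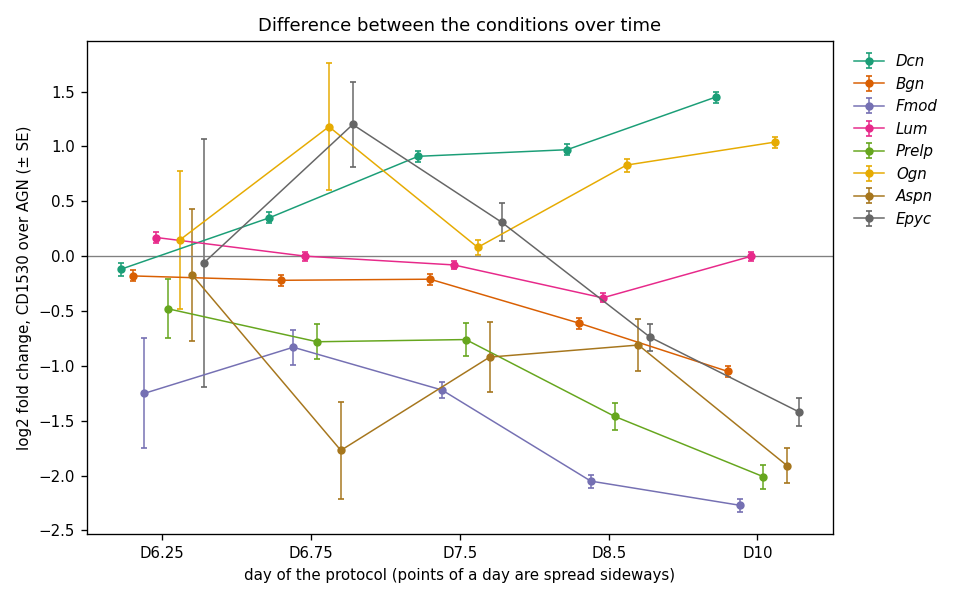
Log2 fold change of CD1530 over AGN (± SE, edgeR) at each day for the 8 genes, with points of the same day spread sideways. Dcn rises to 1.45 and Fmod falls to -2.27 by D10, Lum returns to 0, and Epyc crosses from 1.20 at D6.75 to -1.42 at D10.

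The number of genes called between the conditions was 0 of 8 at D6.25, where 1.92% of all genes were called and 4 of the 8 had an unadjusted p under 0.05. With DESeq2, 1 gene, Bgn, was called at D6.25. These early shares depend on the fit: with only the compared groups, 4.87% of genes were called at D6.25 and 7.42% at D6.75, with 0 and 4 of the 8 genes among them. With 1 library left out the D6.25 share was 1.14% to 1.61%, and 1.27% or less without replicate 1 or 3 of either condition. The number was 6 of 8 at D6.75 (18.0% of all genes), 5 of 8 at D7.5 (26.9%), 8 of 8 at D8.5 (40.0%) and 7 of 8 at D10 (46.6%). At D10, 2 of the 8 were higher in CD1530, where 22.7% of all genes were, and 5 were lower, where 24.0% of all genes were. All 7 changed by 1 or more on the log2 scale, which 10.8% of all genes reached. The median log2 fold change of the 8 genes at D10 was -1.24, and that of all genes was -0.02. In the test of whether the difference between conditions changed over the 5 times, 8 of 8 were called, beside 48.8% of all genes. For the step from D8.5 to D10 it was again 8 of 8, beside 26.8%, but the value for Fmod was at the threshold (-0.22 ± 0.08, adjusted p = 0.0487, edgeR). Without CD1530 D8.5 replicate 3, 5 of the 8 remained called, and Fmod, Prelp and Ogn did not pass.

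Against PM, 8 of 8 were higher at D10 in CD1530 and 8 of 8 in AGN, where 43.3% and 41.6% of all genes were higher. The counts by step are given beside the shares of all genes. From PM to D6.25, 4 of 8 rose in CD1530 (34.5% of all genes) and 4 in AGN (35.0%), in both cases Dcn, Bgn, Lum and Prelp. This is not far from the shares of all genes. Fmod was called lower in CD1530 at this step, a call that was lost without PM replicate 1. Ogn and Epyc held at most 3 counts in each of these libraries. From D6.25 to D6.75, 6 rose in CD1530 (25.8%) and 6 in AGN (24.9%). From D6.75 to D7.5, 7 rose in CD1530 (18.7%) and 5 in AGN (14.2%), and from D7.5 to D8.5 8 rose in each (18.8% and 21.4%). From D8.5 to D10, 7 rose in CD1530 (27.4%) and 7 in AGN (29.9%), with Epyc the exception in both. With 1 library left out, the numbers for D6.75 to D7.5 were 5 to 7 in CD1530, the fewest without D7.5 replicate 2, where Aspn and Prelp did not pass, and 4 to 6 in AGN. These comparisons share the PM libraries or neighbouring times.

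With the 11 groups ordered by mean level, the libraries of neighbouring groups overlapped in 1 of 10 pairs for Fmod, in 3 for Dcn and for Bgn, in 4 for Lum, Prelp and Epyc, in 5 for Ogn and in 6 for Aspn. For Fmod the pair was PM and AGN at D6.25. For Bgn, CD1530 at D10 (1296 ± 17.0 CPM) overlapped AGN at D8.5 (1273 ± 8.52 CPM), and for Dcn the level of CD1530 at D8.5 (419 ± 6.79 CPM) was already above that of AGN at D10 (387 ± 1.65 CPM). Among the groups before D7.5, where both genes had few counts, lay 4 of the 5 overlapping pairs of Ogn and 3 of the 6 of Aspn.

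The share of the TMM-scaled library size taken by the 8 genes was 0.0218% ± 0.00166 in PM. At D10 it was 0.330% ± 0.000952 with CD1530 and 0.562% ± 0.0183 with AGN. The TMM factors ran from 0.902, in AGN at D10, to 1.05, so these are not shares of the raw counts. Levels between genes were compared as CPM per kilobase of exon, with lengths from GENCODE M21 that merge the exons of all transcripts of a gene. On that scale Bgn was the most abundant in PM, with 60.8% ± 0.851 of the sum, followed by Dcn with 32.9% ± 0.579 and Lum with 5.30% ± 0.650. At D6.75 Lum had reached 29.1% ± 1.08 in CD1530 and 27.3% ± 0.635 in AGN. For CD1530 at D10 the order was Bgn (29.2% ± 0.379), Dcn (24.8% ± 0.174), Fmod (18.0% ± 0.326), Lum (15.2% ± 0.0978) and Ogn (11.7% ± 0.185). In AGN it was Fmod (47.9% ± 0.724), Bgn (33.5% ± 0.449), Lum (8.41% ± 0.515), Dcn (5.03% ± 0.147) and Ogn (3.14% ± 0.0642). By CPM alone, Bgn (2692) was above Fmod (2087) and Dcn (387) above Lum (271) in AGN at D10. The order of these pairs thus rests on the exon lengths used. Prelp, Aspn and Epyc each made up less than 1% at D10 in both.

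**Figure D3:**
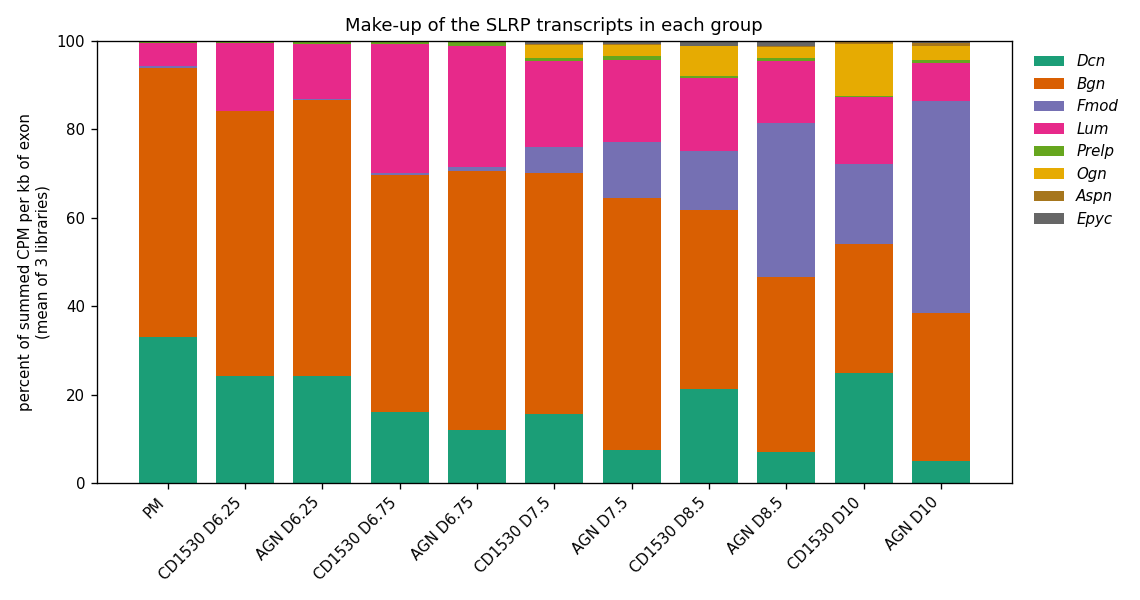
Percent of the summed CPM per kilobase of exon taken by each of 8 SLRP genes in each group (mean of 3 libraries, stacked to 100). Bgn and Dcn hold nearly all of PM, and at D10 Fmod holds 47.9% in AGN and 18.0% in CD1530.

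The SLRP genes sit in groups on the genome (GRCm38, positions from GENCODE M21), and neighbours did not always move together. On chromosome 10 the order is Dcn (97479609 to 97518143), Lum (97565128 to 97572703), Kera and Epyc (97644068 to 97682454), all on the plus strand. Dcn was higher in CD1530, Lum, 47.0 kb on, did not differ at D10, and Epyc was lower. On chromosome 13 the order is Ecm2, Aspn (49544443 to 49567565), Omd and Ogn (49608046 to 49624501), all on the plus strand and inside the gene Cenpp on the minus strand. Aspn and Ogn lie 40.5 kb apart and ended on opposite sides, with a ratio of Ogn to Aspn per kilobase of 37.2 ± 1.64 in CD1530 and 4.80 ± 0.137 in AGN at D10. Cenpp, a gene of the centromere, was lower in CD1530 at D10 (-0.91 ± 0.12), and its exons share 7 bases with those of Aspn. On chromosome 1, Prelp (133910304 to 133921414, minus strand) and Fmod (134037254 to 134048277, plus strand) lie 116 kb apart and were both lower in CD1530. Bgn lies alone on the X chromosome (73483602 to 73495933, plus strand).

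The nearest genes with a row beside the members of these groups were also read at D10, some of them far away. Btg1, 857 kb from Dcn, was lower in CD1530 (log2 fold change -0.37 ± 0.04). Atp2b1, 1232 kb beyond Epyc, was higher (0.42 ± 0.05). Nol8 beside Ogn did not differ (-0.06 ± 0.06, adjusted p = 0.436, edgeR). Beside Fmod, Btg2 was higher in CD1530 (0.65 ± 0.04) while Fmod was lower. Beside Bgn, Haus7 did not differ (0.04 ± 0.08, adjusted p = 0.728) and Dusp9 was higher in CD1530 (1.93 ± 0.05).

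**Figure D4:**
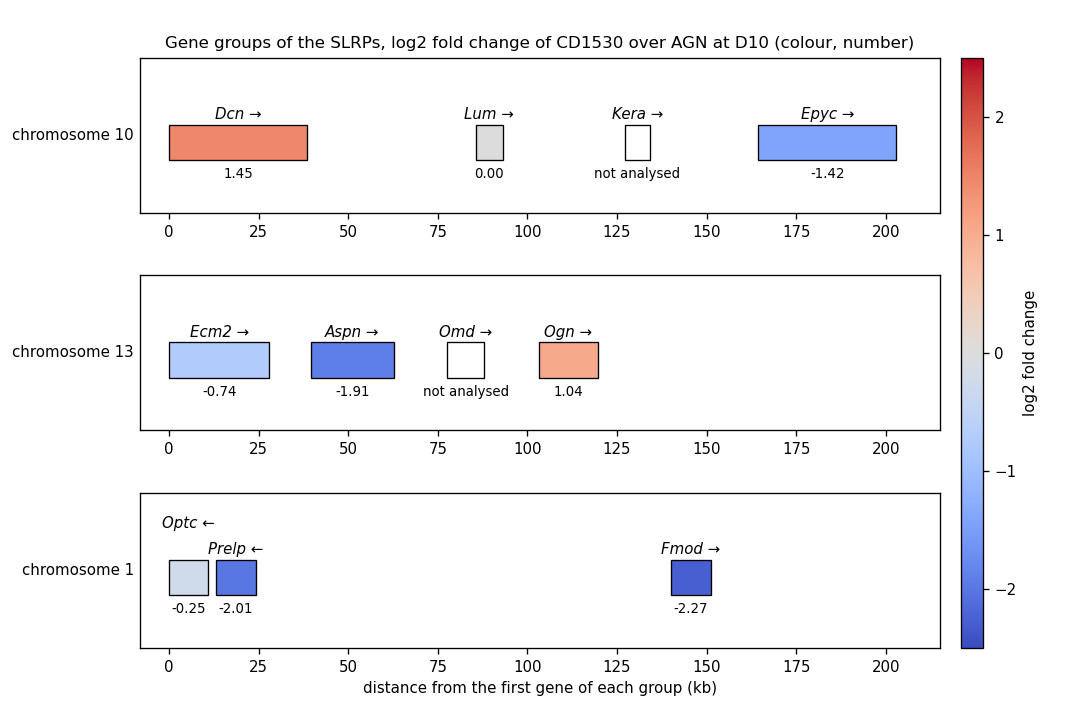
Gene groups on 3 chromosomes drawn to scale in kb from the first gene of each, with arrows for the strand, and the log2 fold change of CD1530 over AGN at D10 as colour and number (Kera and Omd not analysed). Aspn and Ogn, and Dcn and Epyc, lie close and have opposite signs, while Prelp and Fmod share theirs.

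The bases before the transcript start are shown for 2 pairs of neighbours, 1 that moved together (Fmod and Prelp) and 1 that moved apart (Aspn and Ogn). Sequences are from RefSeq on GRCm38.p6, 250 bases up to the annotated start, 5′ to 3′ on the strand of the gene, with capitals marking E-boxes (CANNTG on either strand), the letters bound by Scx and other basic helix-loop-helix factors. Of the 10 genes, 8 had such a window in the RefSeq table used.
Fmod, chr1:134037004-134037253, plus strand: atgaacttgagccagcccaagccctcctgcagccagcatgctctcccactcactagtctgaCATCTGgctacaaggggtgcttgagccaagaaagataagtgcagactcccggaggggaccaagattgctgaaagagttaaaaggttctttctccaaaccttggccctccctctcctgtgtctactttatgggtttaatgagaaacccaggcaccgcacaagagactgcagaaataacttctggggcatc
Prelp, chr1:133921402-133921651, minus strand: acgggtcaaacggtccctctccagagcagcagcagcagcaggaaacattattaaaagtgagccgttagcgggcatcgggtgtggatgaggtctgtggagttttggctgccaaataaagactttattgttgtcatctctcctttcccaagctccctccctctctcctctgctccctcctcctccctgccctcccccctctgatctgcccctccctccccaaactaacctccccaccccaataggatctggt
Aspn, chr13:49544193-49544442, plus strand: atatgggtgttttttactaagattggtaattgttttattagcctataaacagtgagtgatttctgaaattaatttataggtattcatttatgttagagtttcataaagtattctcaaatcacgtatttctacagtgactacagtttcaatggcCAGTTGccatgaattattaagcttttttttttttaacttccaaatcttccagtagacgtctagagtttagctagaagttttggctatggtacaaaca
Ogn, chr13:49607765-49608014, plus strand: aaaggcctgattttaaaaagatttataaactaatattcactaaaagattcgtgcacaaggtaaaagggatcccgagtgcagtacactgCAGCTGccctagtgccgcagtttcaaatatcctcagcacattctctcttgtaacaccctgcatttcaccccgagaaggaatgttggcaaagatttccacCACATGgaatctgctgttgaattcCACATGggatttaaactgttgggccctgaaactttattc
Fmod held 1 E-box, Prelp 0, Aspn 1 and Ogn 3, and 66.2% of the 32536 promoter windows of the same length held at least 1. The Smad letters CAGAC, of interest since both conditions received TGFβ1, were found 2 times before Fmod and 1 time before Prelp on either strand, and not before Aspn or Ogn, with 42.2% of windows holding a match. The nuclear receptor letters AGGTCA was in none of the 4, and in 14.0% of all windows. The letters TATAAA were found 2 times before Aspn and 2 times before Ogn on either strand, and in 12.3% of windows. The 2 matches of Ogn overlap in 1 stretch, the nearer of them 221 bases before the start. The Ogn window ends at 49608014, before the GENCODE start at 49608046, and the bases after it were not found in a GENCODE transcript of Ogn. The Prelp window reaches down to 133921402, inside the GENCODE gene, which starts at 133921414 on the minus strand. These are matches of letters, not sites of binding.

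Relatives of the family that are not among the 10 genes were read from a fixed list of 8, of which 7 had a row. At D10, 2 of the 7 were higher in CD1530 (22.7% of all genes), 3 were lower (24.0%) and 2 did not pass, with a median log2 fold change of -0.25 beside -0.02 over all genes. Chad (chondroadherin), a leucine-rich protein of cartilage matrix, had the largest difference. It held 3.74, 3.69 and 4.16 CPM in CD1530 and 111, 110 and 102 CPM in AGN (-4.80 ± 0.12, adjusted p = 1.7e-31, edgeR). Chadl, its relative, was also lower in CD1530 (-1.56 ± 0.22), although its exons overlap those of L3mbtl2 over 19.5% of their length. Podn (podocan) was higher in CD1530, with 14.4, 13.9 and 13.9 CPM against 5.38, 5.18 and 5.88 CPM (1.36 ± 0.13, adjusted p = 2.38e-11). Ecm2, next to Aspn, was lower (-0.74 ± 0.13), Tsku was higher (0.27 ± 0.05), and Optc (-0.25 ± 0.41) and Podnl1 (0.20 ± 0.32) did not pass.

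Other lists held the partners and makers of SLRPs, and their counts at D10 stand beside the same 22.7% of all genes higher and 24.0% lower. Of 6 fibrillar collagens, 0 were higher in CD1530, 4 were lower and 2 did not pass, with a median of -0.40 beside -0.02 over all genes. Col2a1, the collagen of cartilage, was at 145 ± 4.38 CPM in CD1530 and 2497 ± 69.4 CPM in AGN (-4.10 ± 0.05). Col1a1 was at 9785 ± 320 and 11516 ± 519 CPM (-0.24 ± 0.10, adjusted p = 0.0532, edgeR). Of 10 enzymes that link glycosaminoglycans to core proteins or make dermatan sulfate, 2 were higher and 3 lower, shares near those of all genes, with a median of -0.06, and none changed by 1 or more on the log2 scale. Of the 6 keratan sulfate enzymes with a row, 2 were higher and 3 lower (median -0.17). Among them Chst1, a sulfotransferase that acts on keratan sulfate, was at 8.36 ± 0.326 CPM in CD1530 and 33.8 ± 1.76 CPM in AGN (-2.01 ± 0.09, adjusted p = 9.36e-22).

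Of 10 signalling partners of decorin and biglycan, 5 were higher in CD1530 at D10 (22.7% of all genes), 1 was lower (24.0%) and 4 did not pass (median 0.13). Kdr, the VEGF receptor, was higher (45.3 ± 1.78 against 21.2 ± 1.29 CPM, log2 fold change 1.09 ± 0.09) and Erbb4, a receptor of the EGF family, was lower (2.09 ± 0.267 against 8.35 ± 0.590 CPM, -1.99 ± 0.18). Of the 2 proteases with a row that cleave SLRP propeptides, Tll1 was higher in CD1530 (128 ± 2.63 against 51.9 ± 2.56 CPM, 1.31 ± 0.07) and Bmp1 did not pass (0.13 ± 0.06, adjusted p = 0.0601, edgeR).

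The genes whose 11 group means of log2(CPM + 1) ran closest to each member were taken from 13366 genes with a group mean of at least 5 CPM. For Lum the closest was Mxra7 (Pearson r = 0.999), for Bgn H6pd (0.994), for Fmod Cavin2 (0.994), for Epyc Cpa4 (0.994), for Prelp Galnt10 (0.992), for Ogn Hs6st2 (0.989), for Dcn Art4 (0.988) and for Aspn Fkbp9 (0.987). The third closest to Ogn was Dse, an epimerase of dermatan sulfate synthesis (0.986). These values are a description over 11 groups that share a rise with time, and among the members themselves r ran from 0.66 for Dcn with Prelp to 0.98 for Bgn with Prelp and for Fmod with Epyc.

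In bulk RNA, fewer cells of a type and less RNA per cell cannot be told apart. Markers of other cells moved with these results. Of the 3 fibroblast markers with a row (of 4 in the list), Lox was higher in CD1530 at D10 (1837 against 1038 CPM), while Thy1 (14.8 against 33.5 CPM) and Mmp3 (35.8 against 60.5 CPM) were lower. Their sum at D10, nearly all Lox, was 1884 to 1889 CPM in CD1530 and 1117 to 1149 CPM in AGN. In PM the sum was 164 to 190 CPM, with Mmp3 at 104, Lox at 59.1 and Thy1 at 16.7 CPM. The paper names Lox as a marker of late embryonic tendon differentiation, so the sum at D10 does not mark fibroblasts apart from the induced cells. Whether feeder cells remained in PM was not tested. The pluripotency markers Nanog, Pou5f1 and Sox2 summed to 1693 to 1719 CPM in PM, 148 to 153 CPM in CD1530 at D10 and 230 to 241 CPM in AGN, with Pou5f1 at 26.6 and 149 CPM. Nanog and Sox2 were higher in CD1530 (46.1 and 77.9 CPM) than in AGN (35.2 and 49.2 CPM). The neural markers Sox1, Pax6 and Tubb3 summed to 61.2 to 64.1 CPM in CD1530 and 13.1 to 14.6 CPM in AGN. The endoderm markers Sox17, Foxa2 and Afp summed to 8.54 to 9.74 CPM and 15.4 to 19.1 CPM, with Foxa2 at 4.28 and 14.1 CPM. The bone markers with a row, 2 of 3, went apart, with Sp7 at 0.410 CPM in CD1530 and 3.99 CPM in AGN and Ibsp at 12.3 and 5.15 CPM. The endothelial markers Pecam1, Cdh5 and Tie1 summed to 99.3 to 111 CPM and 112 to 122 CPM, and the PM markers Tbx6, Msgn1 and Meox1 to 71.8 to 75.4 CPM and 64.4 to 68.4 CPM, nearly all Meox1. Muscle markers were at or below 2.44 CPM in every D10 library, and the 2 cornea markers had no row. Their part in the SLRP levels was not tested.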

How the data were processed

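RNA sequencing of 33 cultures in 11 groups was used. The authors aligned reads to GRCm38 with STAR and counted them per gene with featureCounts. The deposited values are raw counts, not normalized. The annotation, strand setting and treatment of multimapping reads are not given in the sources used here. The table had been filtered: 0.611 CPM was the lowest value of any gene in its third-highest library.

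All 33 libraries entered 1 model in edgeR 4.0.16 (R 4.3.3, limma 3.58.1) with a mean per group, TMM scaling and the robust quasi-likelihood test. P-values were adjusted over all 17120 genes within each of 19 contrasts. The filter on low expression removed no gene. Exon lengths are from GENCODE M21, in which 17117 identifiers were found and 3 were not. The biological coefficient of variation was 4.68%. The fit was also run on simulated counts with 1 coefficient of variation shared by all genes. That run does not cover genes of wider spread, and no conclusion is drawn from it here. Replicates had Pearson r from 0.9927 to 0.9977 across genes, and 0 pairs were identical. Counting intervals are exact, at 95%.

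The members, lists and alternatives were chosen with earlier results of these data known. Genes named beside the members were list genes called at D10 and changed by 1 or more on the log2 scale or on which a sentence turns, the nearest genes beside each chromosomal group, and the genes closest to each member over the groups. Alternatives were DESeq2 1.42.0 and its size factors, library size only, no filter or 1 CPM in 3 libraries, the fit without robust estimation, the compared groups only, a replicate block, a minimum fold change, and each library left out.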

Additional observations from a re-analysis of the deposited data

Results flagged for a closer look

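The difference between CD1530 and AGN changed over time for all 8 genes. Between D8.5 and D10, the log2 difference of CD1530 over AGN moved toward CD1530 by 0.48 ± 0.07 (SE) for Dcn, 0.38 ± 0.05 for Lum and 0.22 ± 0.07 for Ogn. It moved toward AGN for Bgn (-0.44 ± 0.07), Fmod (-0.22 ± 0.08), Prelp (-0.55 ± 0.17), Aspn (-1.09 ± 0.30) and Epyc (-0.67 ± 0.18). For Lum, this step ended the difference seen at D8.5, and its direction is the opposite of that of Fmod. The adjusted p-values of the change over all 5 times (edgeR) were 4.33e-18 for Dcn, 3.01e-12 for Bgn, 5.6e-11 for Fmod, 1.02e-10 for Ogn, 9.97e-09 for Lum, 1.03e-08 for Epyc, 1.37e-07 for Prelp and 0.00464 for Aspn.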

How the results depend on the processing

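Under the alternatives, 216 counts of called genes stayed within 1.5 times the count reported and 7 did not. The setting with no filter is among them and could not change a count, since the filter removed no gene. At D6.25, 1 gene, Bgn, was called with DESeq2, with the replicate block and without CD1530 D6.25 replicate 2, and 0 with other libraries left out. With a minimum change of 1 on the log2 scale, D6.75 had 2 called genes, D7.5 had 1 and D8.5 had 2. For the D8.5 to D10 step, 5 to 7 were called with 1 library left out, the fewest without CD1530 D8.5 replicate 3. Fmod lost this call under 13 of 20 alternatives (highest adjusted p 0.130, edgeR), Ogn under 5 and Prelp under 1. Beside Bgn at D6.25, the replicate block changed only the call of Fmod at this step (adjusted p = 0.0650, edgeR). Same-numbered libraries of different groups had a median correlation of 0.000271, from -0.292 to 0.235 over 165 pairs. For libraries of other numbers the median was 0.00118, from -0.303 to 0.364 over 330 pairs. These values pool all groups, so they cannot show whether the numbers pair libraries of the same time.

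For the steps between times, leaving out libraries was added after seeing the data, and the calls it changed stand beside their values. Dcn in AGN from D6.25 to D6.75 ran from -0.027 to 0.075.

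Signs turned for values near 0 or on few counts, none of them called. At D6.25 with 1 library left out, Ogn ran from -0.14 to 0.54, Aspn from -0.67 to 0.075 and Epyc from -3.14 to 0.76. At D6.75, Lum gave -0.00014 with DESeq2 size factors, -1.8e-05 with DESeq2, and from -0.015 to 0.021 with 1 library left out. At D7.5, Ogn ran from -0.0095 to 0.12. At D10, Lum gave 0.035 with library size only, 0.015 with the compared groups only, and from -0.034 to 0.025 with 1 library left out. Scaling by library size only moved the median of all genes to -0.152 for AGN D10 against PM. Depth limits Ogn, Epyc and Aspn before D7.5, where libraries held few counts.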
